A study of Mus musculus with 12 samples.

Results

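Prostaglandin synthesis, breakdown and reception were followed through 10 mouse genes in 12 RNA sequencing libraries of 2 fibroblast lines. The genes were Pla2g4a, Ptgs1, Ptgs2, Ptges, Ptgds, Ptgis, Hpgd, Ptger2, Ptger4 and Ptgfr. They were chosen by symbol, and all 10 had a row among the 24346 genes of the deposited expression table. NIH-3T3 is a line from embryos of NIH/Swiss mice, and MLg a line from the lung of a newborn ddY mouse. The 4 groups were NIH-3T3 given SHHN, NIH-3T3 given vehicle (control), MLg given SHHN and MLg given vehicle (control), with 3 libraries each. SHHN, the recombinant amino-terminal fragment of Sonic hedgehog, was used at 1 µg/ml, and all groups stood for 48 h in medium with 0.5% serum after reaching 85% confluence. Each line is 1 continuous cell line, so the replicates of a group are not separate animals. The labels do not say whether they were separate cultures, and p-values measure only the spread between these libraries.

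Phospholipase A2 enzymes free arachidonic acid from membranes, and the cyclooxygenases Ptgs1 and Ptgs2 turn it into prostaglandin H2, from which separate synthases make prostaglandin E2, prostaglandin D2 and prostacyclin. The products leave the cell, act through receptors coupled to G proteins, and are taken up again by transporters and inactivated by oxidation that starts with the enzyme Hpgd. In lung fibroblasts prostaglandin E2 is known as a brake on proliferation and collagen production, mostly through receptors that raise cyclic AMP.

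Expression was given by the authors as FPKM (fragments relative to transcript length and library size), so levels can be set beside each other between genes on a per-length scale. FPKM totals ran from 470218 to 659862 per library, and sequencing depth is unknown. The Hedgehog target Gli1 was at 139 to 151 FPKM in NIH-3T3 SHHN libraries and at 0.084 to 0.179 FPKM in NIH-3T3 control libraries. In MLg it was at 113 to 128 FPKM with SHHN and 0.414 to 0.906 FPKM in control, so every library matched its treatment label. All 13 fibroblast markers examined were at 1 FPKM or more in every NIH-3T3 library and 12 in every MLg library, where the surface protein Thy1 did not exceed 0.106 FPKM. The summed level of 8 epithelial markers stayed at or below 0.675 FPKM, that of 6 mast cell markers at or below 0.144 FPKM, and that of the macrophage and leukocyte markers between 1.70 and 7.79 FPKM. The summed level of 6 endothelial markers was 6.73 to 25.4 FPKM in NIH-3T3 SHHN, 5.75 to 7.94 FPKM in NIH-3T3 control, 6.29 to 6.99 FPKM in MLg SHHN and 0.233 to 0.447 FPKM in MLg control. Of these, Pecam1, Kdr and Cldn5 stayed at or below 0.137 FPKM in all libraries, while Cdh5, Tek and Vwf were higher with SHHN in MLg. Cdh5, an endothelial cadherin, was at 2.10 to 13.9 FPKM in NIH-3T3 SHHN against 0.0507 to 0.103 FPKM in NIH-3T3 control, and at 4.63 to 5.41 FPKM in MLg SHHN against 0 to 0.0369 FPKM in MLg control. Tek, an endothelial receptor kinase, was at 4.54 to 11.3 FPKM in NIH-3T3 SHHN against 5.70 to 7.80 FPKM in NIH-3T3 control, and at 0.788 to 1.03 FPKM in MLg SHHN against 0.0261 to 0.108 FPKM in MLg control. Vwf, the von Willebrand factor, did not exceed 0.0146 FPKM in NIH-3T3 and was at 0.48 to 0.544 FPKM in MLg SHHN against 0.0788 to 0.345 FPKM in MLg control. The summed level of 6 smooth muscle and pericyte markers was 93.9 to 179 FPKM in NIH-3T3 SHHN, 106 to 141 FPKM in NIH-3T3 control, 294 to 321 FPKM in MLg SHHN and 295 to 354 FPKM in MLg control. Among them the proteoglycan Cspg4 was at 31.2 to 61.1 FPKM in NIH-3T3 SHHN against 14.3 to 19.6 FPKM in NIH-3T3 control, and at 12.1 to 15.9 FPKM in MLg SHHN against 1.97 to 2.39 FPKM in MLg control. The smooth muscle markers Myh11 and Des stayed at or below 0.609 FPKM in all libraries. The part of these markers in the results below was not tested.

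Fold changes are log2 differences of FPKM + 0.5, SHHN over control, from 1 limma fit over the 12379 genes that reached 0.5 FPKM in 3 or more libraries. They are given with the standard error (SE) and the Benjamini-Hochberg adjusted p of limma over all tested genes, and a gene passed where that p was under 0.05. On this scale the changes of low genes are understated. Of the 10 genes, 8 entered the fit and Hpgd and Ptger2 did not. Ptgds entered mainly through its MLg libraries and Ptgfr only through its NIH-3T3 libraries, so a difference between the lines was built into their entry. The 10 genes were proposed with earlier results of these data in view, among them the MLg changes of Ptgds and Ptges, and which values weighed in the choice is not recorded. Their p-values and counts are therefore descriptions of these genes and no evidence about the pathway as a whole.

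**Figure D1:**
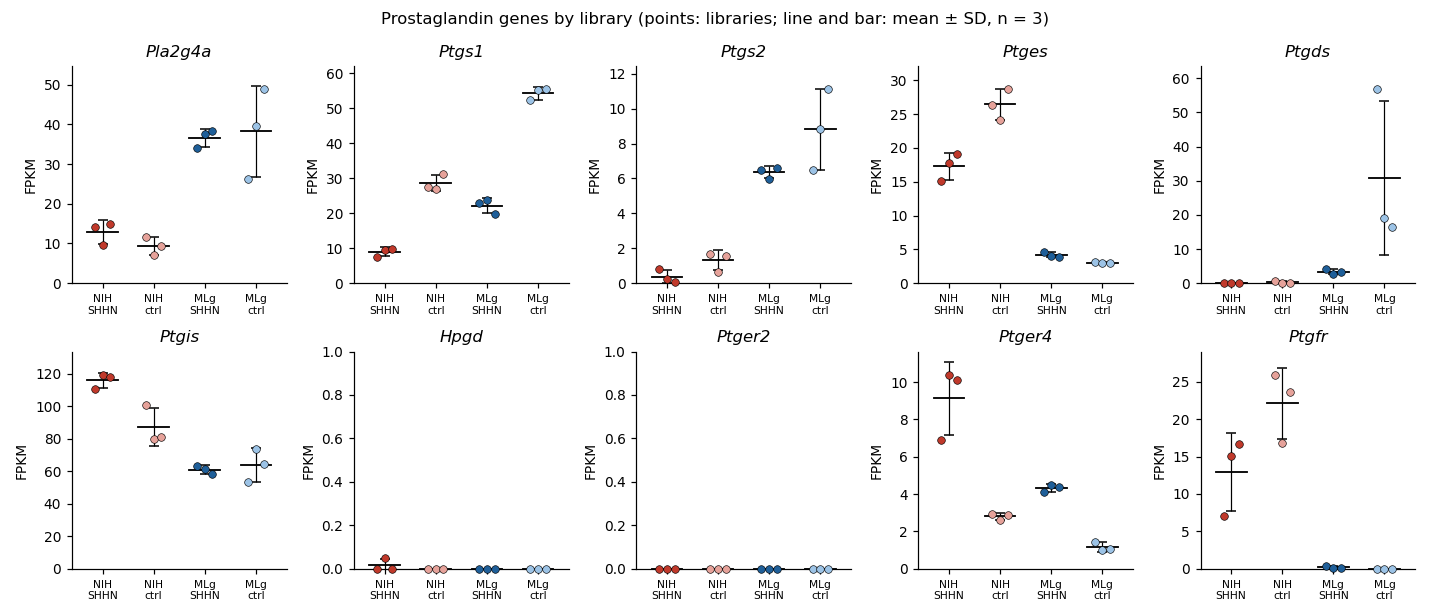
FPKM of the 10 prostaglandin genes (linear axes from 0) in the 4 groups; points are single libraries, horizontal lines the mean and bars the SD of 3 libraries. Ptgs1 is lower and Ptger4 higher with SHHN in both lines, Ptgds drops to 2.80 to 4.19 FPKM in MLg SHHN, Ptgfr is high in NIH-3T3 libraries, and Hpgd and Ptger2 lie at or near 0.

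Ptgs1, the cyclooxygenase that most tissues make constitutively, fell in both lines. It was at 7.48, 9.46 and 9.85 FPKM in NIH-3T3 SHHN, against 27.6, 27.0 and 31.1 FPKM in NIH-3T3 control. In MLg it was at 22.9, 23.7 and 19.8 FPKM with SHHN, against 52.2, 55.1 and 55.4 FPKM in control. The groups did not overlap in either line, and the MLg libraries given SHHN lay below the NIH-3T3 control libraries. The log2 fold change was −1.63 (SE 0.12, adjusted p = 2.42e-07) in NIH-3T3 and −1.28 (SE 0.12, adjusted p = 3.81e-06) in MLg. The difference between the effects, NIH-3T3 minus MLg, was −0.35 (SE 0.17, adjusted p = 0.198). Bulk RNA cannot tell fewer cells that make a transcript from less of it per cell, here and for every gene below. Ptgs1 lies on chromosome 2 at 36230426-36252272 of mm10, on the plus strand, and shares 148 bases of exon with an unnamed gene model on the opposite strand.

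Ptgs2, the cyclooxygenase known for induction by inflammatory and growth signals, was the rarer of the pair in every library. Its values were 0.813, 0.235 and 0.0758 FPKM in NIH-3T3 SHHN, against 1.70, 0.665 and 1.58 FPKM in NIH-3T3 control. Here the highest treated library lay above the lowest control library. The gene fell in NIH-3T3 (log2 fold change −1.09, SE 0.30, adjusted p = 0.0136). That call ended without either of NIH-3T3 SHHN replicates 2 and 3 or of NIH-3T3 control replicates 1 and 3 (adjusted p = 0.0518 to 0.0628) and when only the 6 NIH-3T3 libraries were fitted (adjusted p = 0.0853). In MLg, Ptgs2 was at 6.47, 5.97 and 6.62 FPKM with SHHN, against 6.48, 8.85 and 11.1 FPKM in control. The lowest control value lay inside the treated range, and the change did not pass (−0.41, SE 0.30, adjusted p = 0.383). The difference of the effects between the lines did not pass either (−0.67, SE 0.42, adjusted p = 0.326).

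The balance of both cyclooxygenases was computed per library. Ptgs2 made up 22.4% ± 2.48 (SD, n = 3) of the summed FPKM of both genes in MLg SHHN and 13.9% ± 2.83 in MLg control. Single libraries ran from 20.1% to 25.1% with SHHN and from 11.1% to 16.7% in control, without overlap. In NIH-3T3 the share was 4.33% ± 4.81 with SHHN and 4.34% ± 1.75 in control, and the treated libraries alone spanned 0.763% to 9.80%. No test was made of these shares.

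The promoters of both cyclooxygenases are shown because the genes differ in level and response, as the 250 bases before the RefSeq start site (build GRCm38.p6), 5′ to 3′ on the gene's strand, at chr2:36230176-36230425 for Ptgs1 and chr1:150099781-150100030 for Ptgs2, both on the plus strand. Capitals mark matches on either strand to any of 7 motifs, each given with the share of all 32851 promoters of that length that hold it.
Ptgs1 promoter: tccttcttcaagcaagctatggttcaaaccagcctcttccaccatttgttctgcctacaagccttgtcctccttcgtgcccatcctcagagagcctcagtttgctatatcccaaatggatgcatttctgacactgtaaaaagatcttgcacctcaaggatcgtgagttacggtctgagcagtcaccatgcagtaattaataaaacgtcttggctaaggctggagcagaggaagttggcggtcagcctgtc
Ptgs2 promoter: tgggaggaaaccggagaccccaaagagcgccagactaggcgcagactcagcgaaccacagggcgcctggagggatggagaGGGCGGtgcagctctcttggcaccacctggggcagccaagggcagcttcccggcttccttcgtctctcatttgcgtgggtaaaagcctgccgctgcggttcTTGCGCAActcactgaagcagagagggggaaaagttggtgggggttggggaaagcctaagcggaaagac
The motifs were a GLI core (GACCACCCA, 0.225%), a TATA box (TATAAA, 12.4%), a cyclic AMP response element (TGACGTNA, 2.52%), an E-box (CACGTG, 6.02%), AP-1 (TGANTCA, 6.75%), C/EBP (TTGCNNAA, 9.56%) and Sp1 (GGGCGG, 32.7%). The Ptgs1 window held none of these letters, 5 CpG and 48% G or C. The Ptgs2 window held a C/EBP match at −69 to −62 from the start site, an Sp1 match at −170 to −165, 13 CpG and 61.6% G or C. The median promoter held 6 CpG and 52.4% G or C. None of the 10 windows found for 9 of the genes held the GLI letters, which says only that they are absent from these 250 bases. The same limit holds for every other motif not found in the Ptgs1 and Ptgs2 windows. Bases outside the windows, including those after the RefSeq start site, were not searched.

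Pla2g4a, the cytosolic phospholipase A2 that supplies most arachidonic acid for this pathway, differed between the lines and did not pass with SHHN in either. It was at 14.1, 9.56 and 14.999 FPKM in NIH-3T3 SHHN, against 11.5, 7.11 and 9.43 FPKM in NIH-3T3 control (0.44, SE 0.23, adjusted p = 0.158). The MLg values were 34.1, 37.5 and 38.2 FPKM with SHHN, against 26.2, 39.6 and 48.8 FPKM in control (−0.02, SE 0.23, adjusted p = 0.974). The groups overlapped in both lines, and the MLg control libraries spread more widely than the treated ones. All 6 MLg libraries lay above all 6 NIH-3T3 libraries.

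Among the terminal synthases, Ptges, which makes prostaglandin E2, moved in opposite directions in the 2 lines. It was at 15.1, 17.8 and 19.0 FPKM in NIH-3T3 SHHN, against 26.4, 24.2 and 28.7 FPKM in NIH-3T3 control, and fell by 0.60 on the log2 scale (SE 0.12, adjusted p = 0.00201). In MLg it was at 4.68, 4.08 and 3.93 FPKM with SHHN, against 3.10, 3.01 and 3.04 FPKM in control, and rose by 0.41 (SE 0.12, adjusted p = 0.0272). Neither pair of groups overlapped. The difference of the effects was −1.01 (SE 0.17, adjusted p = 0.00176). The MLg rise ended without any of 5 of the 6 MLg libraries, all but MLg SHHN replicate 3 (adjusted p = 0.0575 to 0.117), whereas the difference between the lines passed in all 20 alternatives (adjusted p = 0.00118 to 0.00705).

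Ptgds, the lipocalin-type synthase of prostaglandin D2, was close to absent in NIH-3T3 and fell in MLg. It was at 4.19, 2.80 and 3.29 FPKM in MLg SHHN, against 56.8, 19.1 and 16.5 FPKM in MLg control. MLg control replicate 1 lay far above the other two, yet the lowest control library was still above every treated one. The log2 fold change was −2.78 (SE 0.42, adjusted p = 2.14e-04). Without MLg control replicate 1 it was −2.23, and over all 21 alternatives the adjusted p reached at most 0.0101. In NIH-3T3 it was listed at 0, 0 and 0.184 FPKM with SHHN and at 0.709, 0 and 0 FPKM in control. The difference of the effects, 2.51 (SE 0.59, adjusted p = 0.0128), compares MLg with a line in which the gene was listed at 0 in 4 of 6 libraries, and it did not pass with a pseudocount of 0.1 (adjusted p = 0.149). The Ptgds promoter, shown for the gene with the widest response, lies at chr2:25469750-25469999 of GRCm38.p6 on the minus strand and holds an AP-1 match at −35 to −29 from the start site.
Ptgds promoter: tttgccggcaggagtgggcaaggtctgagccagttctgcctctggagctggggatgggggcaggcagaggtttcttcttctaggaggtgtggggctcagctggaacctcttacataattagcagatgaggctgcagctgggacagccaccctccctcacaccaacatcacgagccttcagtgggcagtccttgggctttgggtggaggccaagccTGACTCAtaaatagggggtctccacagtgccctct
The window held 2 CpG, and 18.8% of all promoters held fewer.

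Ptgis, the prostacyclin synthase, was the most abundant of the 10 genes in 11 of 12 libraries; in MLg control replicate 1 Ptgds stood higher. It was at 111, 119 and 118 FPKM in NIH-3T3 SHHN, against 100.5, 80.1 and 81.2 FPKM in NIH-3T3 control. The groups did not overlap, and the gene rose by 0.42 on the log2 scale (SE 0.13, adjusted p = 0.0244). That call ended without either of NIH-3T3 SHHN replicates 2 and 3 or of NIH-3T3 control replicates 2 and 3 (adjusted p = 0.0591 to 0.0833). MLg libraries had 63.5, 61.2 and 58.3 FPKM with SHHN, against 53.2, 73.7 and 64.6 FPKM in control, and did not pass (−0.05, SE 0.13, adjusted p = 0.821). The treated MLg libraries lay within the range of their controls. Between the lines the effects differed by 0.47 (SE 0.18, adjusted p = 0.108).

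Hpgd, the dehydrogenase that starts prostaglandin breakdown, was listed at 0 in 11 libraries and at 0.0495 FPKM in NIH-3T3 SHHN replicate 2. Ptger2, the EP2 receptor for prostaglandin E2, was listed at 0 in all 12. With depth unknown, no limit can be set on their levels. Neither line thus showed a transcript level of this enzyme or this receptor that could be compared between groups.

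Ptger4, the EP4 receptor for prostaglandin E2 that couples to cyclic AMP, rose in both lines. It was at 6.89, 10.4 and 10.1 FPKM in NIH-3T3 SHHN, against 2.93, 2.59 and 2.90 FPKM in NIH-3T3 control. In MLg it was at 4.13, 4.51 and 4.36 FPKM with SHHN, against 1.46, 0.999 and 1.05 FPKM in control. Every treated library exceeded every control library of its line, and the treated MLg libraries also exceeded the NIH-3T3 control libraries. The mean was 3.25-fold higher in NIH-3T3 SHHN than in NIH-3T3 control and 3.70-fold higher in MLg SHHN than in MLg control. On the log2 scale the change was 1.52 in NIH-3T3 (SE 0.16, adjusted p = 8.8e-06) and 1.54 in MLg (SE 0.16, adjusted p = 1.06e-05), with a difference of −0.02 (SE 0.23, adjusted p = 0.969). Both calls held in all 21 alternatives. The gene lies on chromosome 15 at 5206661-5244187 of mm10, on the minus strand. It shares 82 bases of exon with Ttc33 on the opposite strand and 1015 bases with the pseudogene Gm15937, and whether strand was used in counting is not given in the sources used here. Ttc33 was at 13.4 ± 1.76 FPKM in NIH-3T3 SHHN and 14.0 ± 1.90 FPKM in NIH-3T3 control, and its change passed in neither line (−0.06 and −0.10). No values of Gm15937 are given here, and the part of either overlap in the Ptger4 values was not tested.

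The Ptger4 promoter is shown for the receptor that rose in both lines, at chr15:5244188-5244437 of GRCm38.p6 on the minus strand.
Ptger4 promoter: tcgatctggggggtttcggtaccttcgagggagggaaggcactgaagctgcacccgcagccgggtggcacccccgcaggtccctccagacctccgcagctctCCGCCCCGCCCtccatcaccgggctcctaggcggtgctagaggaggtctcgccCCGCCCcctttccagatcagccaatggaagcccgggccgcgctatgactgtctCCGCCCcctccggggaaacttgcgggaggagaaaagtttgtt
It held 4 Sp1 matches, of which the pair at −148 to −143 and −143 to −138 share a base, and 19 CpG, where 80.3% of all promoters held fewer. No match to the other 6 motifs was found in it.

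Ptgfr, the FP receptor for prostaglandin F2α, was a gene of the NIH-3T3 libraries. It was at 6.996, 15.1 and 16.7 FPKM in NIH-3T3 SHHN, against 25.9, 16.8 and 23.6 FPKM in NIH-3T3 control. The groups did not overlap, but NIH-3T3 SHHN replicate 3 and NIH-3T3 control replicate 2 nearly met. The gene fell by 0.82 on the log2 scale (SE 0.28, adjusted p = 0.0367). Without NIH-3T3 SHHN replicate 1, its lowest library, the change was −0.44 (adjusted p = 0.148). The call also ended without NIH-3T3 control replicate 1 or 3, with a fit of the NIH-3T3 groups only (adjusted p = 0.146), with no filter (adjusted p = 0.0746) and with a pseudocount of 0.1 (adjusted p = 0.117). In MLg it was at 0.359, 0.161 and 0.0582 FPKM with SHHN and at 0, 0.0369 and 0 FPKM in control, levels too low for a fold to be given. The MLg change did not pass on the fitted scale (0.41, SE 0.28, adjusted p = 0.336), though it passed with a pseudocount of 0.1 (adjusted p = 0.0313).

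**Figure D2:**
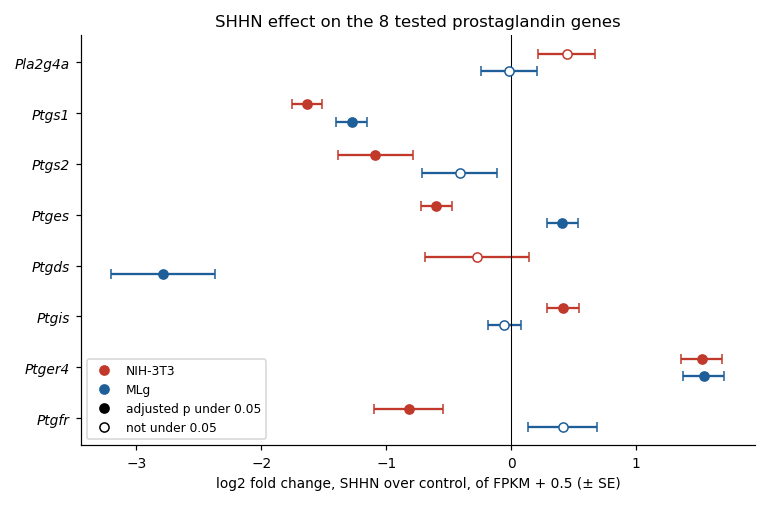
Log2 fold changes of FPKM + 0.5, SHHN over control, with standard errors, for the 8 genes that entered the fit; red is NIH-3T3 and blue MLg, and filled points passed at an adjusted p under 0.05. Ptgs1 and Ptger4 have filled points on the same side of 0 in both lines, and the filled points of Ptges lie on opposite sides.

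In NIH-3T3, 6 of the 8 genes passed, Ptgis and Ptger4 higher and Ptgs1, Ptgs2, Ptges and Ptgfr lower, where 31.4% of all 12379 genes passed, 16.6% higher and 14.8% lower. In MLg, 4 passed, Ptges and Ptger4 higher and Ptgs1 and Ptgds lower, where 22.8% of all genes passed, 12.8% higher and 10.0% lower. The difference of the effects passed for Ptges, lower, and Ptgds, higher, where it passed for 13.4% of all genes, 7.48% higher and 5.95% lower. The FPKM of treated and control libraries did not overlap for 40.4% of all genes in NIH-3T3 and for 41.4% in MLg. The median log2 fold change of the 8 genes was −0.44 in NIH-3T3 and −0.04 in MLg, beside −0.01 and −0.0026 over all tested genes. In NIH-3T3 the count of 6 fell to 3 without NIH-3T3 control replicate 3, where the count of all genes fell from 3885 to 3231.

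The lines also differed in these genes without ligand. NIH-3T3 control exceeded MLg control for Ptges (26.4 ± 2.25 against 3.05 ± 0.046 FPKM, SD, n = 3 each), by 2.92 on the log2 scale (SE 0.12, adjusted p = 2.35e-10). Ptgfr stood at 22.1 ± 4.73 FPKM in NIH-3T3 control and was at or near 0 in MLg control. Ptger4 (0.99, SE 0.16, adjusted p = 1.97e-04) and Ptgis (0.45, SE 0.13, adjusted p = 0.00974) were also higher in NIH-3T3. The call of Ptgis ended without MLg control replicate 1 (adjusted p = 0.0511) and with the 6 control libraries alone (adjusted p = 0.0507).

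Lower in NIH-3T3 control than in MLg control were both cyclooxygenases, the phospholipase and the prostaglandin D2 synthase. Ptgs1 averaged 28.6 ± 2.21 FPKM in NIH-3T3 control and 54.2 ± 1.78 FPKM in MLg control (−0.91, SE 0.12, adjusted p = 2.72e-05). For Ptgs2 the means were 1.31 ± 0.565 FPKM in NIH-3T3 control and 8.81 ± 2.32 FPKM in MLg control (−2.38, SE 0.30, adjusted p = 1.65e-05). Pla2g4a averaged 9.35 ± 2.201 FPKM in NIH-3T3 control and 38.2 ± 11.4 FPKM in MLg control (−1.95, SE 0.23, adjusted p = 7.72e-06). Ptgds was 0.236 ± 0.409 FPKM in NIH-3T3 control and 30.8 ± 22.6 FPKM in MLg control (−5.32, SE 0.42, adjusted p = 1.53e-07). All 8 genes passed in this comparison, 4 higher and 4 lower, where 50.1% of all genes did, 24.4% higher and 25.7% lower, and the FPKM of the lines did not overlap for 52.3% of all genes. The count includes Ptgds and Ptgfr, whose difference between the lines was built into their entry to the fit. Their values and p-values here are descriptions only.

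The order of levels over the 4 groups differed from gene to gene. Ptgs1 was highest in MLg control, then NIH-3T3 control, MLg SHHN and NIH-3T3 SHHN, and no neighbouring groups overlapped. The order of Ptger4 was NIH-3T3 SHHN, MLg SHHN, NIH-3T3 control and MLg control, again with no overlap between neighbours. Ptges followed the line first, with NIH-3T3 control, NIH-3T3 SHHN, MLg SHHN and MLg control in falling order and none of the neighbours overlapping. For Ptgs2 and Pla2g4a the groups of one line overlapped and the lines did not.

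Genes of prostanoid transport with the smallest p of their list are given first. Slco2a1, the prostaglandin transporter that takes the ligands back into cells, was at 6.05, 8.61 and 8.08 FPKM in NIH-3T3 SHHN, against 26.9, 24.3 and 26.0 FPKM in NIH-3T3 control. It fell in NIH-3T3 (−1.71, SE 0.14, adjusted p = 6.93e-07) and did not exceed 0.0692 FPKM in any MLg library. Slco3a1, an organic anion transporter that carries prostaglandins among other substrates, rose in both lines. It averaged 22.8 ± 2.41 FPKM in NIH-3T3 SHHN and 4.72 ± 0.125 FPKM in NIH-3T3 control (2.15, SE 0.13, adjusted p = 4.16e-08). The MLg mean was 44.3 ± 4.53 FPKM with SHHN and 12.5 ± 2.06 FPKM in control (1.79, SE 0.13, adjusted p = 4.97e-07). Slco4a1, a transporter of the same family, was at 9.71 ± 0.782 FPKM in MLg SHHN and 1.43 ± 0.862 FPKM in MLg control (2.48, SE 0.23, adjusted p = 2.74e-06), and at or near 0 in NIH-3T3. Abcc4, an exporter of prostaglandin E2, averaged 0.322 ± 0.103 FPKM in NIH-3T3 control and 2.57 ± 0.561 FPKM in MLg control (−1.89, SE 0.17, adjusted p = 8.12e-07). Slco2a1 entered the fit only through NIH-3T3 libraries, Slco4a1 only through MLg libraries and Abcc4 mainly through MLg libraries. A difference between the lines was thus built into their entry, and the p-value of Abcc4 is a description only.

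Of the 13 listed genes of prostanoid breakdown and transport, 12 had a row and all 12 entered the fit. In NIH-3T3, 1 rose and 2 fell, with a median log2 fold change of 0.19, where 31.4% of all genes passed. In MLg, 2 rose and 2 fell, with a median of 0.01, where 22.8% of all genes passed. Ptgr1, a prostaglandin reductase of the breakdown route, fell in MLg (−0.52, SE 0.12, adjusted p = 0.0067). Its effect differed between the lines by 0.78 (SE 0.17, adjusted p = 0.00903), with 38.6 ± 3.21 FPKM in NIH-3T3 SHHN and 32.2 ± 4.13 FPKM in NIH-3T3 control. The fall of the exporter Abcc1 in NIH-3T3 (−0.42, adjusted p = 0.0476) ended in 11 of 21 alternatives.

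**Figure D3:**
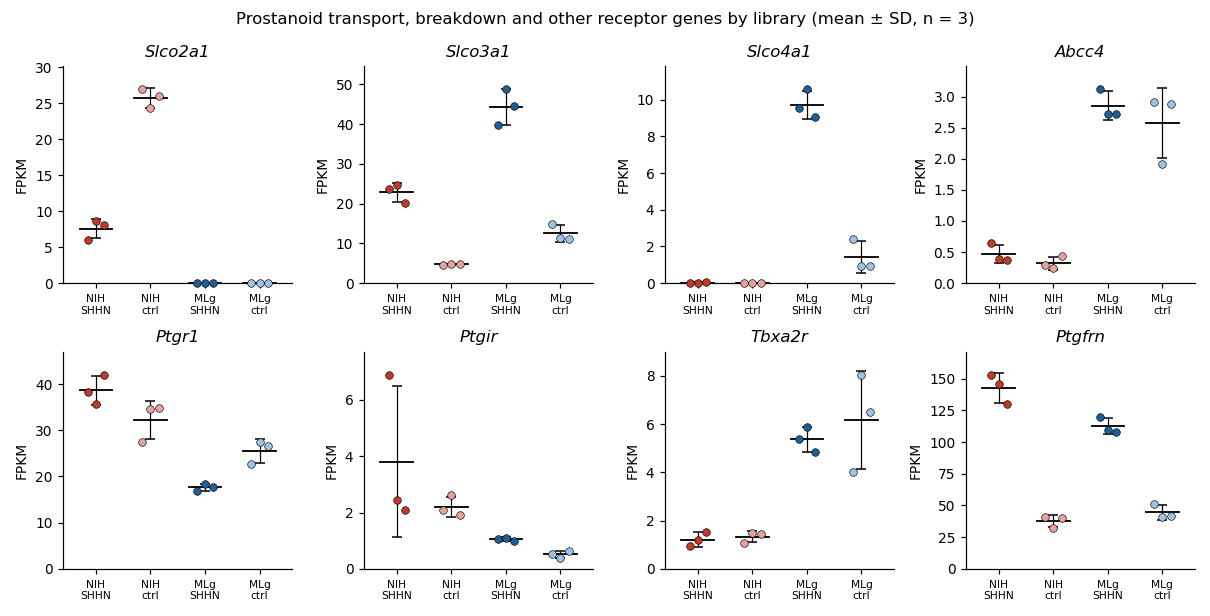
FPKM (linear axes from 0) of 4 transporter genes, the reductase gene Ptgr1 and 3 receptor or receptor partner genes in the 4 groups; points are libraries, lines the mean and bars the SD of 3 libraries. Slco2a1 falls to 6.05 to 8.61 FPKM in NIH-3T3 SHHN and is near 0 in MLg, and Slco3a1 and Ptgfrn are higher with SHHN in both lines.

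Among the other receptors and partners, Ptgfrn, a membrane protein named as a negative regulator of the FP receptor, rose in both lines. It averaged 143 ± 11.8 FPKM in NIH-3T3 SHHN and 37.6 ± 4.68 FPKM in NIH-3T3 control (1.92, SE 0.13, adjusted p = 6.99e-08). In MLg it averaged 113 ± 6.46 FPKM with SHHN and 44.7 ± 5.96 FPKM in control (1.33, SE 0.13, adjusted p = 3.61e-06). The difference of the effects passed narrowly (0.59, SE 0.18, adjusted p = 0.0437) and ended in 10 of 20 alternatives, 9 of which left out a library. Ptgfrn was thus high in MLg, where Ptgfr itself was at or near 0. Of the 8 listed receptor and partner genes 7 had a row, 4 entered the fit, and Ptgfrn was the only one to pass with SHHN in either line. Of all genes, 31.4% passed in NIH-3T3 and 22.8% in MLg.

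The prostacyclin receptor Ptgir and the thromboxane receptor Tbxa2r set the lines apart. Ptgir was at 6.89, 2.44 and 2.10 FPKM in NIH-3T3 SHHN, with replicate 1 far above the other two, against 2.10, 2.61 and 1.92 FPKM in NIH-3T3 control. It averaged 2.21 ± 0.359 FPKM in NIH-3T3 control and 0.513 ± 0.126 FPKM in MLg control (1.42, SE 0.30, adjusted p = 0.00132). Tbxa2r averaged 1.33 ± 0.230 FPKM in NIH-3T3 control and 6.18 ± 2.04 FPKM in MLg control (−1.82, SE 0.21, adjusted p = 8.71e-06). Ptgdr, a receptor for prostaglandin D2, was below the filter, as were Ptger3 and Ptgdr2. Ptger1, the EP1 receptor for prostaglandin E2, averaged 21.6 ± 2.97 FPKM in NIH-3T3 SHHN and 19.7 ± 1.90 FPKM in NIH-3T3 control. In MLg it averaged 25.2 ± 1.98 FPKM with SHHN and 27.0 ± 2.18 FPKM in control. Its mean thus lay above that of Ptger4 in every group. Exon overlaps of Ptger1 are not given here.

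Of 24 listed phospholipase A2 genes and helpers, 11 entered the fit. In NIH-3T3, 3 rose and 3 fell (median 0.14), where 16.6% of all genes passed higher and 14.8% lower. In MLg none rose and 5 fell (median −0.62), where 12.8% of all genes passed higher and 10.0% lower. Anxa1, an annexin that restrains phospholipase A2 activity, fell in both lines, to 182 ± 18.5 FPKM in NIH-3T3 SHHN against 308 ± 1.30 FPKM in NIH-3T3 control (−0.76, SE 0.11, adjusted p = 1.17e-04). In MLg it fell to 156 ± 11.6 FPKM with SHHN against 287 ± 20.3 FPKM in control (−0.88, SE 0.11, adjusted p = 4.28e-05). Pla2g15, the lysosomal phospholipase, also fell in both lines (−0.60 and −0.69). Pla2g3, a secreted phospholipase, was at 1.07, 1.80 and 2.26 FPKM in NIH-3T3 SHHN, against 0.141, 0.0262 and 0.340 FPKM in NIH-3T3 control (1.71, SE 0.21, adjusted p = 3.44e-05). Its effect differed between the lines (1.86, SE 0.30, adjusted p = 0.00126). Pla2g3 entered the fit only through its NIH-3T3 SHHN libraries, so both its rise and this difference were built into its entry. Their p-values are descriptions only. The gene shares 401 bases of exon with Inpp5j on the opposite strand. Inpp5j was at 0.364 ± 0.258 FPKM in NIH-3T3 SHHN and was listed at 0 in NIH-3T3 control, below the filter, and its part in the Pla2g3 values was not tested.

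Of 16 other listed synthase genes, 15 had a row and 9 entered the fit, of which 4 fell in NIH-3T3 and 2 in MLg, and none rose in either line. Of all genes, 14.8% passed lower in NIH-3T3 and 10.0% in MLg, and 16.6% and 12.8% passed higher. The medians were −0.13 in NIH-3T3 and −0.12 in MLg. Cbr2, a carbonyl reductase, fell to 6.45 ± 0.843 FPKM in NIH-3T3 SHHN against 21.4 ± 3.15 FPKM in NIH-3T3 control (−1.65, SE 0.29, adjusted p = 6.11e-04). In MLg it fell to 2.17 ± 0.553 FPKM with SHHN against 6.08 ± 3.001 FPKM in control (−1.20, SE 0.29, adjusted p = 0.00776). The aldo-keto reductase Akr1b8 fell in both lines (−0.76 and −0.59), though reads shared with close family members could have been split. Hpgds and Tbxas1, the hematopoietic prostaglandin D2 synthase and the thromboxane synthase, were below the filter.

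Of 32 listed genes of the cyclic AMP branch below the EP2, EP4 and prostacyclin receptors, 23 entered the fit. In NIH-3T3, 4 rose and 3 fell (median −0.01), and in MLg, 5 rose and 3 fell (median 0.05), where 31.4% of all genes passed in NIH-3T3 and 22.8% in MLg. Arrb1, an arrestin that turns off receptors coupled to G proteins, rose in NIH-3T3 (1.39, SE 0.15, adjusted p = 8.51e-06) and MLg (0.91, SE 0.15, adjusted p = 4.77e-04). Pde3a, a phosphodiesterase that breaks down cyclic AMP, rose in both lines (1.48 in NIH-3T3, 1.05 in MLg; SE 0.22 each). Rapgef3, the cyclic AMP sensor Epac, fell by 0.80 and 0.95 (SE 0.15 each). Exons of Pde3a share 741 bases, and those of Rapgef3 236 and 351 bases, with genes on the opposite strand. Adcy7, an adenylyl cyclase, reached 5.03 ± 0.487 FPKM in MLg SHHN against 0.378 ± 0.121 FPKM in MLg control (2.66, SE 0.20, adjusted p = 5.5e-07). Its effects in the lines differed, NIH-3T3 minus MLg, by −2.16 (SE 0.28, adjusted p = 2.65e-04). Adcy7 entered the fit mainly through its SHHN libraries, so a rise with SHHN was built into its entry and its p-values are descriptions only. Nr4a1, an immediate early nuclear receptor, fell in NIH-3T3 (−0.80, SE 0.16) and rose in MLg (0.60, SE 0.16), and its effects differed by −1.40 (SE 0.22, adjusted p = 0.00107).

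Of 26 inducers and RNA regulators of Ptgs2 known from other cells, 23 entered the fit. In NIH-3T3, 3 rose and 7 fell (median −0.27), and in MLg none rose and 4 fell (median −0.23), beside shares over all genes of 31.4% in NIH-3T3 and 22.8% in MLg. Cebpd, a C/EBP factor, fell to 10.6 ± 0.607 FPKM in NIH-3T3 SHHN against 36.2 ± 12.1 FPKM in NIH-3T3 control (−1.68, SE 0.20, adjusted p = 2.15e-05). In MLg it fell to 3.02 ± 0.342 FPKM with SHHN against 6.88 ± 1.42 FPKM in control (−1.06, SE 0.20, adjusted p = 0.00145). It shares 562 bases of exon with Spidr on the opposite strand, whose change did not pass in either line (−0.28 in NIH-3T3, 0.34 in MLg). Zfp36l1, which promotes decay of transcripts with AU-rich elements, fell in both lines (−1.33 and −0.97, SE 0.17 each). Zfp36l1 shares 1672 bases of exon with the unnamed gene model Gm26669 on the opposite strand, whose part in these values was not tested. Il1r1, the receptor of interleukin 1, fell in NIH-3T3 (−1.13, SE 0.20, adjusted p = 5.49e-04). Transcripts of the inducers Il1b and Tnf were listed at 0 in all 12 libraries.

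**Figure D4:**
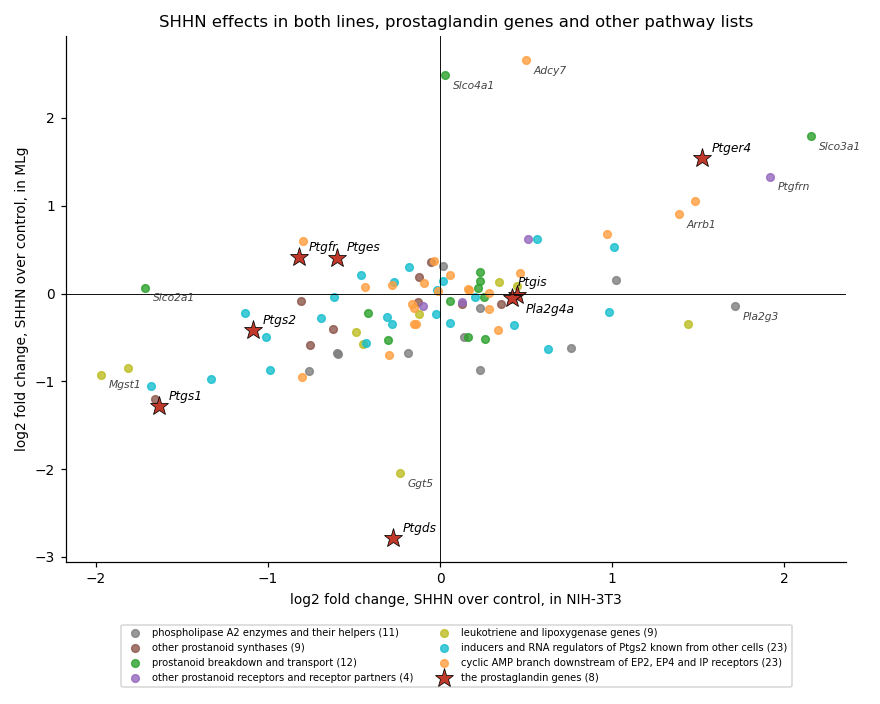
Log2 fold change of FPKM + 0.5, SHHN over control, in NIH-3T3 (horizontal) and MLg (vertical); stars are the 8 fitted prostaglandin genes and dots the fitted genes of the other lists, with the number of genes in brackets. Ptger4 lies with Slco3a1 and Ptgfrn at the upper right, Ptgs1 at the lower left, and Ptgds and Slco2a1 near the axes of MLg and NIH-3T3.

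Leaving out unnamed gene models, the genes whose profile was most like that of each gene were found by the root-mean-square difference of centred log2 values over the 12 libraries. For Ptgs1 they were Lbh (0.19), Il6ra (0.21) and Meis1 (0.22). Lbh, a transcriptional cofactor of limb and heart development, was at 44.3 ± 5.35 FPKM in NIH-3T3 SHHN, 131 ± 23.0 FPKM in NIH-3T3 control, 82.5 ± 6.87 FPKM in MLg SHHN and 260.1 ± 27.7 FPKM in MLg control. For Ptger4 they were Arhgef10 (0.18), Abca8b (0.20) and Gas7 (0.21). For Ptges they were Glt8d2 (0.18), Ppp1r3c (0.20) and Sh2d3c (0.20). For Ptgfr they were the matrix genes Eln (0.26) and Postn (0.31) and the complement regulator Cd55 (0.37). For Ptgds, which varied more widely (SD 2.42 on the log2 scale, against 0.96 for Ptgs1), they were Fbln7 (0.75), Chst1 (0.78) and Slc1a6 (0.78), and the measure is not scaled to that spread. Profiles over 4 groups have few degrees of freedom, and likeness here is a description.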

How the data were processed

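The authors deposited FPKM values for every gene in each of the 12 libraries, with replicates kept apart. Per the submitters' processing notes, bcl2fastq, TopHat2 2.0.12, Cufflinks 2.2.1 and mm10 were used. The annotation, strand setting and scaling between libraries were not given in the sources used here. Column names gave the line, the treatment and the replicate of a library. In the table, 1 entry without values was left out.

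Ratios of values under 0.3 FPKM between replicates 1 and 2 of each group showed no shared read step (at most 3.17% of genes within 0.01 of 1 ratio on the natural log scale), so counts were not recovered, depth is unknown and no counting interval is given.

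Genes reaching 0.5 FPKM in 3 or more libraries were tested as log2(FPKM + 0.5) with limma 3.58.1 under R 4.3.3. The model held a mean for each of 4 groups, its variances followed a trend, and it was tested first on simulated data. P-values are two-sided, Benjamini-Hochberg adjusted over 12379 genes, with a threshold of 0.05. The labels name no batch.

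Members, gene lists and tests were chosen with earlier results of these data known. All 10 members are named, as are, of each other list, at most the 4 genes with the smallest p per comparison and the 3 genes nearest to a member in profile. Genes given by level alone were chosen after their values were seen.

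MLg libraries of the same replicate number deviated together across genes (correlations of deviations from the group means 0.132, 0.157 and 0.241). MLg libraries of different numbers gave −0.177 to 0.00857. Deviations within a group sum to 0, so these correlations are not independent of each other. A second fit that blocked on the replicate number changed no call of a member in MLg. Positions and exon overlaps are from GENCODE M21 and promoters from RefSeq. Exon overlaps are not listed for every named gene, and their part in the values was not tested. Alternatives were other pseudocounts, filters and scalings, the groups compared alone, the block, robust variances and leaving out each library.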

Additional observations from a re-analysis of the deposited data

Results flagged for a closer look

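Ptges and Ptgds were singled out because their SHHN effect differed between the lines in the limma test of that difference. For Ptges it was −1.01 on the log2 scale, NIH-3T3 minus MLg (SE 0.17, adjusted p = 0.00176), with 17.3 ± 2.003 FPKM in NIH-3T3 SHHN against 26.4 ± 2.25 FPKM in NIH-3T3 control, and 4.23 ± 0.400 FPKM in MLg SHHN against 3.05 ± 0.046 FPKM in MLg control (SD, n = 3 each). For Ptgds it was 2.51 (SE 0.59, adjusted p = 0.0128), with 0.0615 ± 0.107 FPKM in NIH-3T3 SHHN against 0.236 ± 0.409 FPKM in NIH-3T3 control, and 3.43 ± 0.706 FPKM in MLg SHHN against 30.8 ± 22.6 FPKM in MLg control. The Ptgds value compares a fall in MLg with a line where the gene was listed at 0 in 4 of 6 libraries. It did not pass with a pseudocount of 0.1 (limma adjusted p = 0.149), and Ptgds entered the fit mainly through its MLg libraries. The MLg changes of both genes were in view when the set was proposed, so the p-values of Ptges and Ptgds here are descriptions only.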

How the results depend on the processing

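Of 20 calls of the members, 14 held in every alternative, among them those of Ptgs1 and Ptger4 in both lines. With a library left out, the number of members called in NIH-3T3 ran from 3 to 6, and 3 was reached without NIH-3T3 control replicate 3. The number of all genes called in NIH-3T3 ran from 3049 to 4275. The number of all genes whose effect differed between the lines ran from 1093, without MLg SHHN replicate 3, to 2345, without NIH-3T3 control replicate 2. The latter library lay farthest from the other replicates of its group (root-mean-square log2 difference 0.451, lowest of all libraries 0.214). It also had the highest FPKM total (659862) and the fewest genes above 0 (13401). Uncalled values changed sign when single libraries were left out, over ranges of −0.49 to 0.15 for Ptgds in NIH-3T3, −0.18 to 0.056 for Ptgis in MLg, −0.26 to 0.18 for Pla2g4a in MLg and −0.14 to 0.16 for the difference of Ptger4. That difference was also 0.092 with a pseudocount of 1 and 0.0045 with median-ratio scaling. The difference of Ptgfr did not pass (−1.23, adjusted p = 0.053) but passed in 4 alternatives, and that of Ptgis in 2. The causes were not tested.

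In NIH-3T3, libraries with the same number did not deviate together (correlations −7.03e-04, −0.101 and 0.0269). NIH-3T3 libraries of different numbers gave −0.116 to 0.138. Between the controls of the 2 lines, libraries of the same number gave −0.0719, 0.445 and 0.395. Those of different numbers ran from −0.488 to 0.262. The cause was not tested. With the replicate number as a block, 6 members were again called in NIH-3T3, 3 higher and 3 lower: Pla2g4a passed (adjusted p = 0.0442) and Ptgfr did not (adjusted p = 0.06). It changed no other call of a member. The difference of the effects needs all 4 groups, so no fit of fewer groups exists for it.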

Other observations

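The leukotriene and lipoxygenase genes, the other branch of arachidonic acid use, were not part of the set above. Of 19 listed, 9 entered the fit, of which 2 rose and 2 fell in NIH-3T3 and none rose and 3 fell in MLg, where 31.4% of all genes passed in NIH-3T3 and 22.8% in MLg. Ggt5, which converts leukotriene C4 to D4, fell to 0.645 ± 0.217 FPKM in MLg SHHN against 4.52 ± 2.42 FPKM in MLg control (limma log2 fold change −2.05, SE 0.26, adjusted p = 4.92e-05). Its single values there were 0.890, 0.478 and 0.568 FPKM with SHHN, against 7.31, 2.94 and 3.32 FPKM in control. Among the MLg control libraries, replicate 1 was the highest for Ggt5, as it was for Ptgds and Slco4a1. Mgst1, a microsomal glutathione transferase, fell in NIH-3T3 (−1.97, SE 0.20) and in MLg (−0.93, SE 0.20). Ltc4s, the leukotriene C4 synthase, was at 5.597 to 7.13 FPKM in NIH-3T3 SHHN against 1.19 to 3.22 FPKM in NIH-3T3 control and rose (1.44, SE 0.32, adjusted p = 0.00355). It shares 268 bases of exon with Gm26542 on the opposite strand. The lipoxygenase Alox5 itself was below the filter. Its activating protein Alox5ap averaged 0.363 ± 0.164 FPKM in NIH-3T3 control and 2.56 ± 0.273 FPKM in MLg control (−1.84, SE 0.21, adjusted p = 5.47e-06). Alox5ap and Ggt5 entered the fit only through their MLg libraries, so a lower level in NIH-3T3 was built into their entry. The p-value of Alox5ap is a description only.

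NIH-3T3 SHHN replicate 1 lay apart from replicates 2 and 3 in several of these genes. It was the lowest of the 3 for Ptger4 and Ptgfr and the highest for Ptgs2 and Ptgir. The immediate early factor Egr1 was at 54.9 FPKM in it, against 19.4 and 18.6 FPKM in replicates 2 and 3.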
